A study of Mus musculus with 8 samples.

Results

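The change from day 0 to day 1 was followed in mouse skeletal myoblasts, the dividing precursor cells of muscle fibres, that had received an siRNA against G9a (siG9a). It was measured on 4 of the 8 arrays of the study, 2 siG9a arrays at day 0 and 2 at day 1, chosen by sample title and paired by replicate number. The other 4 arrays held cells given a scrambled control siRNA (control) at the same days, again in 2 biological replicates. Whether replicates came from separate animals or cultures is not given, so p-values measure the spread between these samples. Total RNA was hybridised to Illumina WG-6 v2.0 BeadChips, 1 array per sample. The strain or line of the cells, the siRNA sequence and the event from which the days were counted are not stated in the labels. Knockdown lowers a transcript without removing the gene. The G9a probes have a value in every siG9a sample, which does not show that the transcript was detected there.

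Each deposited value is a logarithm, taken here as log2, relative to a level of the probe's own. Values therefore compare arrays for 1 gene and not genes with each other, and they do not show which genes were detected above background. A value of 1 unit is a 2-fold difference if the base is 2. Differences are day 1 minus day 0, averaged over the 2 replicate pairs, with the standard error (SE) from limma. A gene is said to have risen or fallen where its Benjamini-Hochberg adjusted p over all 31443 features (1 probe per named gene, unnamed probes singly) was under 0.05 in a model of the 4 groups with the replicate number as a block. Most calls depend on the block, and counts from the same model without it are given for the main groups of genes.

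G9a, encoded by Ehmt2, methylates lysine 9 of histone H3 together with its partner GLP, encoded by Ehmt1, and is known in myoblasts to hold back muscle differentiation. Myoblasts that differentiate leave the cell cycle, switch on the transcription factors myogenin and MEF2 under MyoD, fuse into multinucleate myotubes and build sarcomeres. Id proteins oppose this by capturing the E-protein partners of MyoD, while CDK inhibitors and the retinoblastoma protein keep the E2F-driven genes of DNA replication off.

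Ehmt2 was low in siG9a at both days and gave no call between them. On the probe with the largest spread it stood at -0.82 and -0.69 at day 0 and -0.95 and -0.31 at day 1 (replicates 1 and 2), against 1.23 and 0.59 in control at day 0 and 0.77 and 0.66 in control at day 1. Every siG9a value was below every control value on this probe and on a further Ehmt2 probe, while the remaining Ehmt2 probe showed a smaller gap with overlapping groups. From day 0 to day 1 in siG9a, Ehmt2 differed by 0.13 ± 0.24 (adjusted p = 0.776) and Ehmt1 by 0.04 ± 0.14 (adjusted p = 0.874), neither past the threshold.

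Array medians lay between -0.146, in siG9a day 0 replicate 1, and 0.108, in siG9a day 1 replicate 2. All 4 arrays of replicate 1 had a median below 0 and all 4 of replicate 2 one above 0. The median change of all features from day 0 to day 1 was 0.0902 in siG9a and 0.00931 in control. Of 10 markers of the labelled cell type and its descendants 7 rose and 0 fell, with a median change of 1.32. Fibroblast, adipocyte, macrophage, endothelial and neuronal markers together gave 1 rise and 3 falls among 40 measured genes (2.5% and 7.5%), near the 3.42% and 5.56% of all features, with list medians between 0.057 and 0.137. The 1 rise was the collagen gene Col1a1 and the falls were Pparg, Cd14 and Egfl7. Among 8 smooth muscle and pericyte markers Acta2 and Tagln rose and Cspg4 fell. The values cannot show whether any of these markers were absent.

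Between day 0 and day 1, siG9a myoblasts raised genes of the contractile apparatus and lowered genes of DNA replication and mitosis. Of 31443 features, 1076 rose (3.42%) and 1749 fell (5.56%). The called rises had a median size of 0.808 log2 units and the called falls one of -0.74. A change of 2 units or more was reached by 101 rises and 56 falls, and 1 of 3 units or more by 36 rises and 6 falls. Over the 2825 called features the changes in the replicate pairs correlated with r = 0.902, across features that are not independent replicates. Calls favour features whose pairs moved alike, so this r does not measure agreement of the pairs over all features.

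The count depends on how the replicates are treated. Without the replicate block 72 features rose (0.229%) and 213 fell (0.677%), all of them also called with it, and the median SE went from 0.115 to 0.203. When each array was centred on its median, which lowers all siG9a changes by 0.0909, 779 features rose and 2352 fell, so that rises made up 24.9% of the calls instead of 38.1%. In bulk samples such as these, fewer cells of a kind and less of a transcript per cell cannot be told apart, and this holds for each result below.

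Among the 15 largest rises were 12 muscle genes and 3 secreted or cell cycle regulators. Cdkn1c, the CDK inhibitor p57, rose most, from -5.49 and -5.48 at day 0 to -0.27 and 0.63 at day 1, a difference of 5.67 ± 0.20 (adjusted p = 1.4e-05) or 50.8-fold. Its day 0 values were the closest together of all these genes, and the groups lay far apart. Fgf21, a hormone of the FGF family that muscle releases under stress, stood at -2.83 and -4.49 at day 0 and 1.07 and -0.58 at day 1 and rose by 3.90 ± 0.18 (adjusted p = 2.88e-05). Igf2, the fetal insulin-like growth factor, stood at -2.45 and -4.78 at day 0 and -0.31 and 0.11 at day 1 and rose by 3.51 ± 0.61 (adjusted p = 0.00708). In the last 2 genes replicate 2 started lower than replicate 1.

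Actc1, the cardiac alpha-actin that embryonic skeletal muscle also uses, stood at -2.07 and -6.16 at day 0 and 0.26 and -0.18 at day 1 and rose by 4.15 ± 0.79 (adjusted p = 0.0111). Ckm, muscle creatine kinase, stood at -2.12 and -5.03 at day 0 and 1.45 and -0.87 at day 1 and rose by 3.87 ± 0.28 (adjusted p = 0.000131). For both genes the day 0 arrays differed by over 2 units, with replicate 2 the lower, and the day 1 arrays lay above both of them. The rest were the fast troponins Tnnc2 and Tnnt3, the ubiquitin ligase subunit Asb2, the myosin chaperone Unc45b, perinatal myosin Myh8, the thin-filament protein Klhl41, the M-band protein Myom2, the calcium pump Atp2a1, the irisin precursor Fndc5 and the respiratory subunit Cox8b. Their rises lay between 3.36 for Cox8b and 3.79 for Tnnc2. The other Myom2 probe moved by only 0.147.

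**Figure D1:**
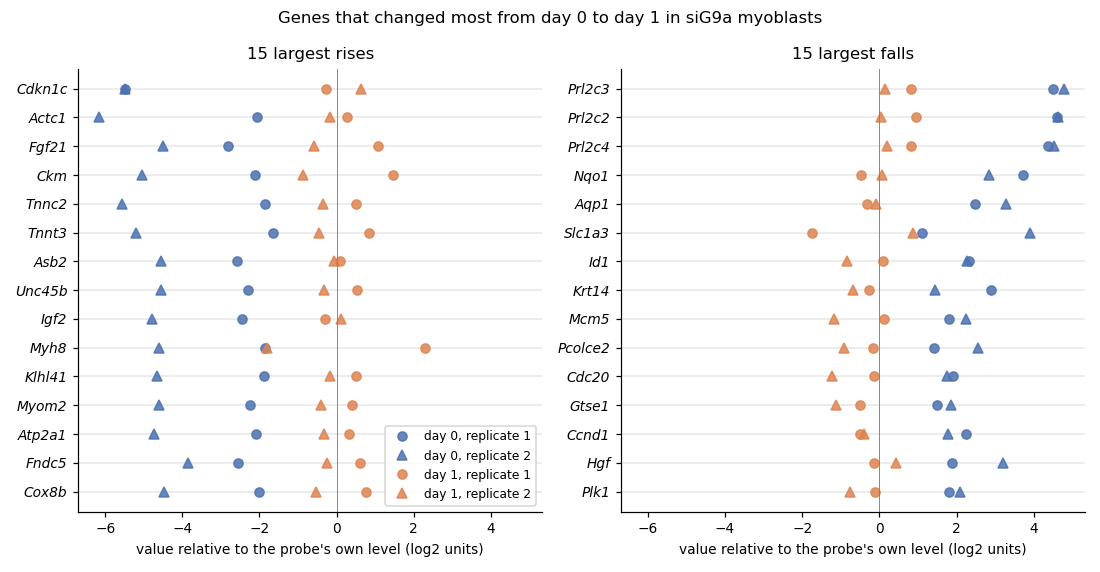
Values of the 15 genes with the largest rise and the 15 with the largest fall in siG9a, in log2 units relative to each probe's own level on the horizontal axis. Blue symbols are day 0 and orange symbols day 1, circles replicate 1 and triangles replicate 2. The day 0 values of Cdkn1c lie together near -5.49, whereas those of Actc1 lie apart at -2.07 and -6.16.

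The 15 largest falls began with the proliferins, placental hormone genes of the prolactin family that growing cultured cells also express. Prl2c3 stood at 4.50 and 4.79 at day 0 and 0.83 and 0.15 at day 1 and fell by 4.15 ± 0.21 (adjusted p = 3.38e-05), and Prl2c2 and Prl2c4 had differences of -4.13 and -3.94. These genes are near-identical in sequence and their probes may read each other's transcripts, so their values are not independent. Nqo1, a quinone reductase induced by NRF2, stood at 3.72 and 2.83 at day 0 and -0.47 and 0.06 at day 1 and fell by 3.48 ± 0.30 (adjusted p = 0.000225). The other Nqo1 probe moved by only -0.256. On the probes used here, every day 0 value of these 4 genes was at least 2 units above every day 1 value.

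Further down came Aqp1, a water channel (-3.08 ± 0.14 (adjusted p = 2.79e-05)), Slc1a3, a glutamate transporter (-2.95 ± 0.13 (adjusted p = 2.79e-05)), Id1 (described below), Krt14, a basal keratin (-2.64 ± 0.22 (adjusted p = 0.000198)), and Pcolce2, a procollagen processing enhancer (-2.53 ± 0.42 (adjusted p = 0.00551)). Slc1a3 differed between replicates by more than 2 units at each day, yet its pairs moved by nearly the same amount, -2.86 and -3.03. Hgf, hepatocyte growth factor, which activates satellite cells, stood at 1.87 and 3.20 at day 0 and -0.15 and 0.42 at day 1. Mcm5, Cdc20, Gtse1, Ccnd1 and Plk1, all of the cell cycle, completed the 15.

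Several transcription factors of muscle differentiation rose. Over all lists of regulators 15 of 89 genes rose (16.9%) and 16 fell (18%), against 3.42% and 5.56% of all features. Of 19 measured myogenic, TEAD and MEF2-related transcription factors, 7 rose and 0 fell, and without the replicate block 0 rose. Myog, myogenin, stood at -1.29 and -4.71 at day 0 and 0.68 and -0.10 at day 1 and rose by 3.28 ± 0.58 (adjusted p = 0.00745). Both arrays of day 1 were above those of day 0, and replicate 2 started more than 3 units below replicate 1. Myod1, the determination factor, stood at 0.14 and -1.78 at day 0 and 0.92 and -0.19 at day 1 and rose by 1.19 ± 0.26 (adjusted p = 0.0224), with day 0 replicate 1 above day 1 replicate 2, so that its groups overlapped.

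Tead4, a TEAD factor of differentiating myoblasts, stood at -1.28 and -2.34 at day 0 and 1.10 and -0.63 at day 1 and rose by 2.04 ± 0.20 (adjusted p = 0.000411). Mef2c stood at -1.32 and -2.16 at day 0 and 0.82 and -0.87 at day 1 and rose by 1.72 ± 0.34 (adjusted p = 0.0141). The remaining rises were those of Srf (0.68), the factor of actin genes, the muscle methyltransferase Smyd1 (0.68) and the E protein Tcf4 (0.46), whose groups overlapped. After median centring Smyd1 and Tcf4 were no longer called, and the list had 5 rises and 1 fall. The progenitor factors Myf5 (0.001 ± 0.11 (adjusted p = 0.998)) and Pax7 (0.17 ± 0.10 (adjusted p = 0.358)) did not pass, nor did the late factor Myf6 (0.20 ± 0.12 (adjusted p = 0.383)).

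Several factors that oppose myogenesis fell. Id1 stood at 2.32 and 2.27 at day 0 and 0.09 and -0.83 at day 1 and fell by 2.67 ± 0.25 (adjusted p = 0.000291). Id3 stood at 2.36 and 2.11 at day 0 and 0.19 and -0.13 at day 1 and fell by 2.21 ± 0.13 (adjusted p = 6.27e-05), and Id2 at 2.03 and 1.08 at day 0 and 0.38 and -0.62 at day 1 and fell by 1.67 ± 0.13 (adjusted p = 0.00017). For all 3 Id genes the 2 day 0 values were above the 2 day 1 values. Twist2, a bHLH repressor of MyoD, fell by 1.78 ± 0.13 (adjusted p = 0.000131) and the zinc-finger factor Snai1 fell by 0.89 ± 0.19 (adjusted p = 0.0178), though the other Snai1 probe moved by only -0.120. Of 23 measured repressors and progenitor factors these 5 fell, and 2 rose, Zeb1 (1.24 ± 0.10 (adjusted p = 0.000176)) and the Notch target Heyl (1.28 ± 0.33 (adjusted p = 0.0458)). Of all features 5.56% fell and 3.42% rose. Without the replicate block 3 of the 5 falls and the rise of Zeb1 were still called. Id4, which shares the Id fold, stood at 0.12 ± 0.11 (adjusted p = 0.532) and Twist1 at -0.30 ± 0.12 (adjusted p = 0.172), neither past the threshold.

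**Figure D2:**
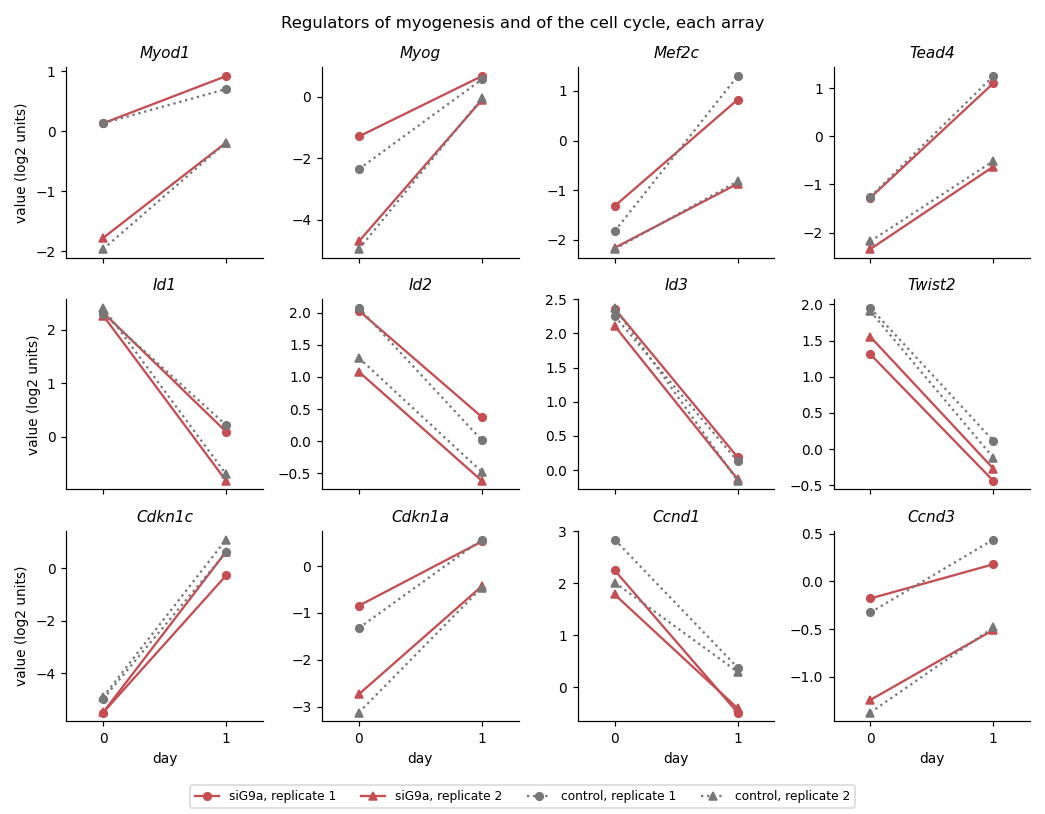
Values of 12 regulators at day 0 and day 1 in log2 units, 1 panel per gene with its own vertical axis. Red solid lines are siG9a and grey dotted lines control, circles replicate 1 and triangles replicate 2. In siG9a, Id1 goes from 2.32 and 2.27 to 0.09 and -0.83, and Cdkn1c from near -5.5 to -0.27 and 0.63.

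Regulators of the G1 phase changed in opposite directions within families. Of 8 measured genes in the CDK inhibitor list, which includes the CDK-associated phosphatase Cdkn3, 2 rose and 2 fell. Of all features 3.42% rose and 5.56% fell. Without the block 1 gene of the list rose and 1 fell. Beside Cdkn1c, Cdkn1a (p21) rose, from -0.85 and -2.74 at day 0 to 0.52 and -0.43 at day 1, by 1.84 ± 0.23 (adjusted p = 0.0012). Cdkn3 fell by 1.83 ± 0.14 (adjusted p = 0.000132) and Cdkn2d (p19) fell by 1.07 ± 0.15 (adjusted p = 0.00242), while Cdkn1b (p27) stood at 0.16 ± 0.13 (adjusted p = 0.479). The other Cdkn3 probe moved by only -0.131. Replicate 2 again started lower for Cdkn1a but not for Cdkn1c.

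The D-type cyclins split. Ccnd1, cyclin D1 of proliferating cells, stood at 2.25 and 1.78 at day 0 and -0.49 and -0.41 at day 1 and fell by 2.46 ± 0.19 (adjusted p = 0.000157), a 5.51-fold difference. Ccnd3, the cyclin D of differentiated muscle, stood at -0.18 and -1.24 at day 0 and 0.18 and -0.51 at day 1 and rose by 0.55 ± 0.12 (adjusted p = 0.0218), but only within pairs, since the groups overlapped. Ccnd2 (-0.24 ± 0.22 (adjusted p = 0.536)) did not pass. Rb1, the retinoblastoma protein gene, rose by 1.27 ± 0.14 (adjusted p = 0.000746) and its relative Rbl1 (p107) fell by 1.37 ± 0.22 (adjusted p = 0.00454), while Rbl2 (p130) stood at 0.08 ± 0.12 (adjusted p = 0.728). Of the E2F factors E2f1 fell by 1.28 ± 0.26 (adjusted p = 0.0153) and E2f2 rose by 1.13 ± 0.10 (adjusted p = 0.000238). Of 21 genes in this list 3 rose and 7 fell, against 3.42% and 5.56% of all features. Without the replicate block only the fall of Ccnd1 remained. For Rbl1 the other probes did not all move the same way, and E2f5, which also fell (-0.74), had its other probe moving the opposite way.

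Of 18 measured genes of H3K9 methylation, the group to which Ehmt2 belongs, 1 rose and 2 fell. Of all features 3.42% rose and 5.56% fell, so that these few calls are near the background. Kdm4c, a demethylase, rose (0.58 ± 0.13 (adjusted p = 0.0224)). The HP1 genes Cbx5 (-0.76 ± 0.12 (adjusted p = 0.00468)) and Cbx3 (-0.78 ± 0.15 (adjusted p = 0.0115)) fell, with the other probes of each of them not falling. The groups of Kdm4c and of Cbx3 overlapped. After median centring Kdm4c was no longer called, and without the block 0 genes of this list were. The methyltransferases Suv39h1 (0.32 ± 0.10 (adjusted p = 0.0939)), Suv39h2 (0.13 ± 0.11 (adjusted p = 0.497)) and Setdb1 (-0.08 ± 0.11 (adjusted p = 0.682)) did not pass.

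Many genes of muscle structure and function rose. Over the 10 lists of muscle structure and function, 97 of 192 measured genes rose (50.5%) and 7 fell, against 3.42% and 5.56% of all features. The median change was 0.764, and 119 of the 192 (62%) had day 1 values that did not overlap those of day 0, against 27.9% of all features. Without the replicate block 5 of the 192 rose. Leaving out siG9a day 0 replicate 2 left 82 rises, and leaving out siG9a day 1 replicate 2 left 85. In the rising genes replicate 2 minus replicate 1 had a median of -1.75 at day 0 (lower in 87 of 97 genes) and of -1.05 at day 1 (lower in 91 of 97). The part that this difference between replicates has in the calls was not tested.

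Of 19 myosin chain genes 6 rose and 0 fell. Myh3, embryonic myosin, stood at -1.67 and -4.78 at day 0 and 0.37 and -0.32 at day 1 and rose by 3.25 ± 0.48 (adjusted p = 0.00315). Myh8, perinatal myosin, stood at -1.86 and -4.60 at day 0 and 2.28 and -1.80 at day 1, where replicate 1 ended far above replicate 2, and rose by 3.47 ± 0.47 (adjusted p = 0.00213). Slow myosin Myh7 rose by 1.19 ± 0.20 (adjusted p = 0.0061). The adult fast myosins Myh1 (1.72 ± 0.52 (adjusted p = 0.083)), Myh4 (0.74 ± 0.24 (adjusted p = 0.101)) and Myh2 (0.13 ± 0.10 (adjusted p = 0.479)) did not pass. Myh1 was high on day 1 replicate 1 alone, at 2.07 and -0.42 for the day 1 arrays. Among light chains Myl1 rose by 2.57 ± 0.12 (adjusted p = 2.88e-05) and Myl4, the embryonic form, by 2.88 ± 0.45 (adjusted p = 0.0044).

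Of 21 troponin, actin, tropomyosin and thin-filament genes 12 rose and 1 fell, with a median of 2.33. Slow and fast troponins rose together. The slow and cardiac set stood at 3.05 ± 0.54 (adjusted p = 0.00803) for Tnnt1, 2.87 ± 0.26 (adjusted p = 0.000251) for Tnni1 and 2.68 ± 0.63 (adjusted p = 0.0305) for Tnnc1, and the fast set at 3.63 ± 0.44 (adjusted p = 0.00113) for Tnnt3, 3.29 ± 0.43 (adjusted p = 0.00169) for Tnni2 and 3.79 ± 0.60 (adjusted p = 0.00448) for Tnnc2. Each of these 6 was lower in replicate 2 than in replicate 1 at day 0. Tpm2, beta-tropomyosin, rose by 3.25 ± 0.31 (adjusted p = 0.000329), and Tpm3 fell by 0.83 ± 0.16 (adjusted p = 0.013), although its other 3 probes did not fall and the mean of its probes changed by 0.45 in the opposite direction. Tmod1, which caps thin filaments, and Lmod3, which nucleates them, rose by 2.40 ± 0.18 (adjusted p = 0.000131) and 2.33 ± 0.22 (adjusted p = 0.000291). Acta1, the adult skeletal actin, stood at -0.88 and -3.78 at day 0 and 0.09 and 0.10 at day 1, a difference of 2.42 ± 0.65 (adjusted p = 0.0517) that just missed the threshold.

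Z-disc, titin and M-band genes gave 19 rises and 0 falls among 27. Ttn, titin, the spring that spans the sarcomere, stood at -1.76 and -4.34 at day 0 and 0.53 and -0.53 at day 1 and rose by 3.05 ± 0.29 (adjusted p = 0.000312), with 10 of its other probes higher as well and 1 lower. Csrp3, the Z-disc sensor MLP, rose by 3.23 ± 0.22 (adjusted p = 9.71e-05) and Actn3, alpha-actinin of fast fibres, by 1.94 ± 0.14 (adjusted p = 0.000132). The filament-stabilising Klhl40 and the filamin Flnc rose by 2.50 ± 0.18 (adjusted p = 0.000115) and 1.58 ± 0.12 (adjusted p = 0.000145). The day 1 values were above the day 0 values for each of these, and replicate 2 was the lower at day 0. Pdlim5, whose replicates lay close together at -1.74 and -1.44 at day 0 and 0.16 and 0.16 at day 1, rose by 1.75 ± 0.11 (adjusted p = 7.87e-05) and was 1 of the 5 muscle genes still called without the block, though 1 of its other probes went the other way.

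Calcium handling gave 16 rises and 1 fall among 23. Ryr1, the calcium release channel, stood at -1.53 and -3.93 at day 0 and 0.72 and -0.67 at day 1 and rose by 2.76 ± 0.23 (adjusted p = 0.000189). Casq2, Hrc and Srl, proteins of the calcium store, rose by 3.27 ± 0.17 (adjusted p = 3.6e-05), 3.27 ± 0.25 (adjusted p = 0.000145) and 3.04 ± 0.19 (adjusted p = 7.87e-05). Jph1, which holds the store to the T-tubule, rose by 1.32 ± 0.15 (adjusted p = 0.000856) and was still called without the block. The fall was Cacna2d1, a calcium channel subunit (-1.04 ± 0.12 (adjusted p = 0.000876)), whose other 2 probes did not fall.

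In muscle energy metabolism 9 of 21 genes rose and 1 fell. Cox6a2 and Cox8b, the muscle forms of respiratory subunits, rose by 3.01 ± 0.18 (adjusted p = 6.27e-05) and 3.36 ± 0.28 (adjusted p = 0.000198). The glycolytic enzyme Pgam2 rose by 3.09 ± 0.26 (adjusted p = 0.000213), and Mb, myoglobin, by 3.07 ± 0.36 (adjusted p = 0.000925). Pdk4, the kinase that turns off glucose oxidation, fell by 1.20 ± 0.15 (adjusted p = 0.00117). Among 28 general respiratory chain subunits outside this list, 0 rose and 3 fell, against 3.42% and 5.56% of all features. Their median was -0.130.

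Surface and synapse genes rose by smaller amounts. Acetylcholine receptor and neuromuscular genes gave 9 rises and 0 falls among 15, with a median of 0.777. The fetal receptor subunit Chrng stood at -1.20 and -4.37 at day 0 and 0.51 and -0.16 at day 1 and rose by 2.96 ± 0.55 (adjusted p = 0.0102), while the adult subunit Chrne stood at 0.22 ± 0.16 (adjusted p = 0.444). Chrnb1, Lrp4 and Ncam1 rose by 2.07, 1.19 and 1.73. In the dystrophin complex 11 of 16 rose and 0 fell, among them dystroglycan (Dag1, 1.71 ± 0.16 (adjusted p = 0.000304)) and dystrobrevin (Dtna, 1.61 ± 0.13 (adjusted p = 0.000177)), and Dmd itself stood at 0.08 ± 0.14 (adjusted p = 0.745).

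Fusion genes changed less as a list, with 4 rises and 2 falls among 21 and a median of 0.177. Mymk, myomaker, the membrane protein that drives myoblast fusion, stood at -1.47 and -4.77 at day 0 and 0.80 and -0.41 at day 1 and rose by 3.32 ± 0.42 (adjusted p = 0.00135). The cadherin Cdh15, Tspan33 and Adam12 also rose, by 1.46, 1.39 and 0.73. The other Adam12 probe moved by only 0.086. Cav1, the widely expressed caveolin, fell by 1.38 ± 0.29 (adjusted p = 0.018), with day 1 replicate 1 far below the other arrays at -2.04 and 0.08 for the day 1 values, and Cav3, the muscle caveolin, rose by 1.53 ± 0.39 (adjusted p = 0.0414).

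Ubiquitin ligase and splicing genes of muscle gave 4 rises of 16 and 7 of 13, with 0 and 2 falls. Asb2 stood at -2.57 and -4.55 at day 0 and 0.08 and -0.07 at day 1 and rose by 3.57 ± 0.34 (adjusted p = 0.000317), and the MuRF genes Trim63 and Trim54 rose by 1.71 ± 0.18 (adjusted p = 0.000569) and 1.82 ± 0.16 (adjusted p = 0.000213). Of 10 Asb genes Asb2 alone rose, with the others not past the threshold. The splicing kinase Srpk3 rose by 2.39 ± 0.18 (adjusted p = 0.000145), the RNA-binding protein Rbm38 by 1.92 ± 0.13 (adjusted p = 0.00011) and Rbfox1 by 2.28 ± 0.21 (adjusted p = 0.000272), while Ptbp1, which represses muscle exons, fell by 1.14 ± 0.13 (adjusted p = 0.000767). For Rbfox1 1 of 2 other probes and for Ptbp1 all 5 other probes moved the same way.

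**Figure D3:**
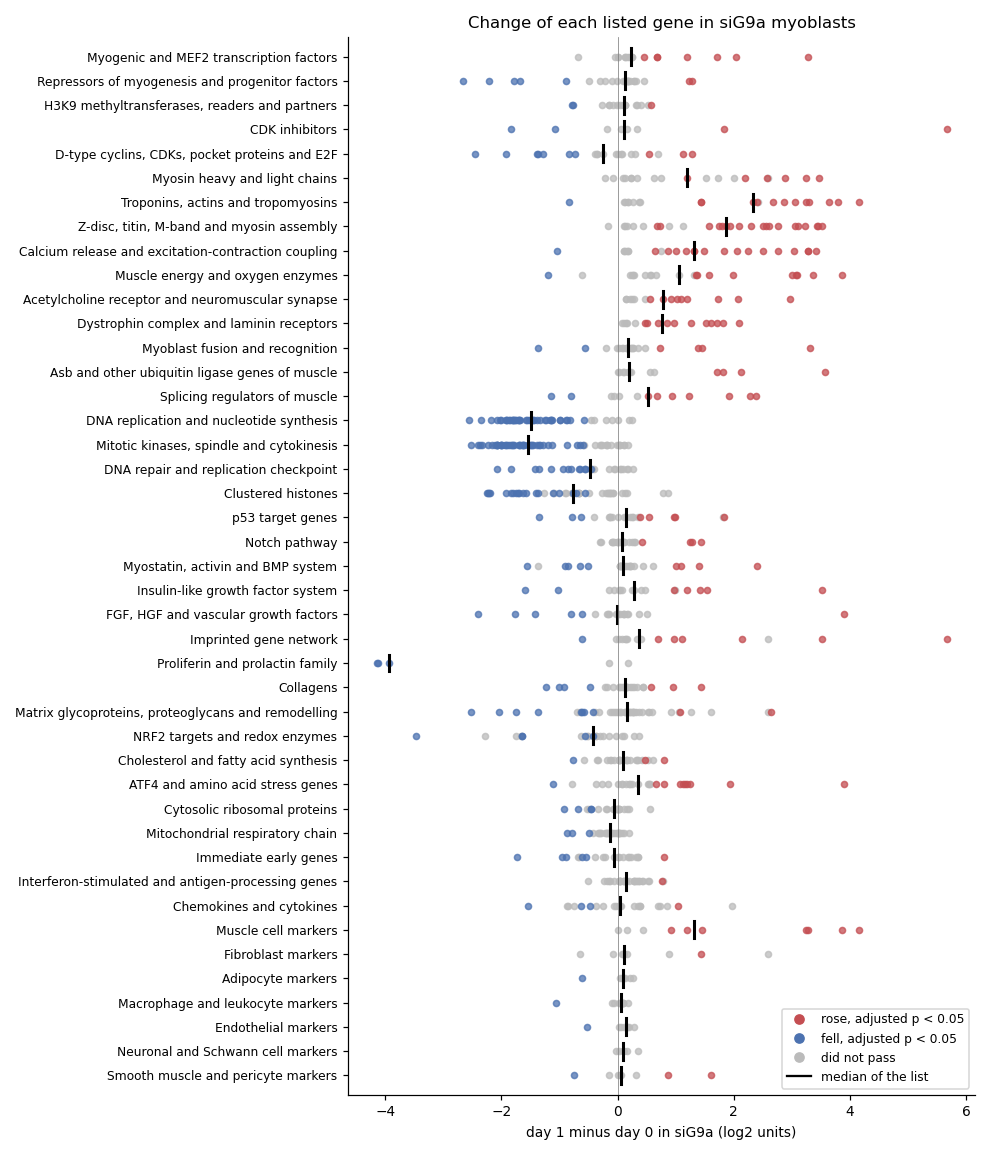
Change from day 0 to day 1 in siG9a for each listed gene, in log2 units, 1 line per gene list. Red points rose and blue points fell at an adjusted p under 0.05, grey points did not pass, and the black bar is the median of the list. The troponin and actin list has its median at 2.33 and the mitotic list at -1.55.

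The promoters of the muscle genes are shown because members of these lists rose together. RefSeq promoter windows (GRCm38.p6, 250 bases before to 50 after the start, transcript strand, 5′ to 3′) were taken for the 3 muscle genes with the largest rise that had an entry, and for Myog, which was added after its values were seen. Capitals mark E-boxes (CANNTG, the core bound by MyoD and myogenin) and the MEF2 sites CTAAAAATA and CTATTTATA, sought on both strands. Actc1 (chr2:114052826-114053125, minus strand) held 1 E-box, Ckm (chr7:19410844-19411143, plus strand) 1, Tnnc2 (chr2:164779685-164779984, minus strand) 2 and Myog (chr1:134289754-134290053, plus strand) 2. None held an exact match to either of these MEF2 forms. Other forms of the site were not sought, so a window without a mark may still hold one.
Actc1: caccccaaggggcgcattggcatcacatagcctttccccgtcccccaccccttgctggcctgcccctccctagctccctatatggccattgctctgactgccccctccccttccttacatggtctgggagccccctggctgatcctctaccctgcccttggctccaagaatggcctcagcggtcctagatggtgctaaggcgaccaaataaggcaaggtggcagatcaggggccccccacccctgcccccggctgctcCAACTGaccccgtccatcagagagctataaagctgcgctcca
Ckm: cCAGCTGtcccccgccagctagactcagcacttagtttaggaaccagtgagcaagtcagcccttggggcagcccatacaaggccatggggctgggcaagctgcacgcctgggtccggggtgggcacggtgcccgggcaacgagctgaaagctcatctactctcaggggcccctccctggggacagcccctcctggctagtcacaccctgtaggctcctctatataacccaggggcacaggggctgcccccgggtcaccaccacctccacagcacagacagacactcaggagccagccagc
Tnnc2: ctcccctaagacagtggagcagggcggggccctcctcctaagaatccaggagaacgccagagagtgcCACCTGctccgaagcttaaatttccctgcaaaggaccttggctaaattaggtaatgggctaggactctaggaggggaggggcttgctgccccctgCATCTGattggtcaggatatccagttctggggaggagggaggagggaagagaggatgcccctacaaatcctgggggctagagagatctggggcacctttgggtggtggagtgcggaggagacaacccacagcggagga
Myog: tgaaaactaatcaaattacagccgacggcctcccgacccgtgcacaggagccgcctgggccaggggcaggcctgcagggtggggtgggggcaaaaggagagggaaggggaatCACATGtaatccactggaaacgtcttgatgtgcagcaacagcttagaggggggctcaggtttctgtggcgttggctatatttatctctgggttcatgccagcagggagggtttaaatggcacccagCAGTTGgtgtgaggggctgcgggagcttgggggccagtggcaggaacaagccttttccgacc

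Of the 97 muscle genes that rose, 70 had a promoter in the table. E-boxes were in 82.9% of these and in 72.1% of all 27025 promoters, so they are common everywhere. The E-box form CAGCTG, which myogenin and MyoD prefer and which the Ckm window carries, was in 37.1% against 16.1%. A MEF2 site in either form was in 7.14% against 0.929%, a TATA box (TATAAA) in 18.6% against 14.2% and a CCAAT box in 37.1% against 37.9%. A CAGCTG match is also an E-box match. These shares describe letters in a short window and do not show that a factor was bound.

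Most listed genes of replication and mitosis fell. Over the lists of replication, mitosis, DNA repair and histones, 119 of 179 measured genes fell (66.5%) and 0 rose, against 5.56% and 3.42% of all features, with a median of -1.23. The day 0 and day 1 values did not overlap in these 119 genes, nor in 88.7% of all features that fell, against 27.9% of all features. Without the replicate block 47 fell. The fall was larger in pair 2 for 113 of the 119, with medians of -1.22 in pair 1 and -1.998 in pair 2. Without siG9a day 0 replicate 2 or without siG9a day 1 replicate 2, 78 were called.

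Replication genes gave 42 falls among 49, with a median of -1.49. All 7 measured MCM genes, which encode the helicase loaded at origins and its partner Mcm10, fell, Mcm5 the most. Mcm5 stood at 1.81 and 2.25 at day 0 and 0.13 and -1.19 at day 1 and fell by 2.56 ± 0.41 (adjusted p = 0.00457). The day 0 arrays were close together and day 1 replicate 2 was the lowest. Gins1, of the active helicase, fell by 1.69 ± 0.15 (adjusted p = 0.000217). Cdt1, which loads MCM proteins, fell by 1.79 ± 0.19 (adjusted p = 0.000512), and Tk1, thymidine kinase, fell by 2.35 ± 0.33 (adjusted p = 0.00242). The clamp loader gene Rfc3 fell by 1.14 ± 0.10 (adjusted p = 0.00027) and the polymerase gene Pole fell by 1.12 ± 0.11 (adjusted p = 0.000356), though the other Pole probe went the other way. Pcna, the sliding clamp, fell by 0.83 ± 0.14 (adjusted p = 0.00565).

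Mitotic genes gave 45 falls among 61, with a median of -1.55. Plk1, polo-like kinase, stood at 1.81 and 2.10 at day 0 and -0.13 and -0.76 at day 1 and fell by 2.40 ± 0.21 (adjusted p = 0.000245). Cdc20, the activator of the anaphase-promoting complex, stood at 1.90 and 1.76 at day 0 and -0.14 and -1.24 at day 1 and fell by 2.52 ± 0.22 (adjusted p = 0.00025). Kif23, a kinesin of cytokinesis, stood at 1.38 and 0.94 at day 0 and -0.41 and -1.15 at day 1 and fell by 1.94 ± 0.11 (adjusted p = 6.27e-05). In each of these the day 1 arrays lay below both day 0 arrays, replicate 2 the lower. Aurkb (-2.01), Cdk1 (-2.08), Mki67 (-2.10), Foxm1 (-1.55), Spc24 (-1.65) and Tpx2 (-1.61) fell as well. Ccna2 (-0.28 ± 0.10 (adjusted p = 0.146)), Ccnb2 (0.19 ± 0.12 (adjusted p = 0.373)) and Bub1 (0.10 ± 0.12 (adjusted p = 0.632)), genes of the same phase, did not pass.

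Of 25 DNA repair and checkpoint genes 13 fell, among them Clspn (-2.08 ± 0.29 (adjusted p = 0.00224)), Rad54l (-1.84 ± 0.14 (adjusted p = 0.000145)), Fancd2 (-1.35 ± 0.15 (adjusted p = 0.000717)) and Msh6 (-1.42 ± 0.19 (adjusted p = 0.00205)). The other Rad54l probe moved by only -0.339. Of 44 clustered histone genes 19 fell, with medians of -0.281 in pair 1 and -1.360 in pair 2. Without the replicate block 0 of the histone genes were called. The H2A genes fell in 11 of 14 cases, with a median of -1.75, and H3 genes in 5 of 7, whereas 0 of 10 H2B and 0 of 5 H1 genes were called. The H2B median was -0.787, with pair medians of 0.029 and -1.75, so the pairs disagreed. H2ac21 stood at 1.35 and 1.40 at day 0 and -0.27 and -1.37 at day 1 and fell by 2.19 ± 0.31 (adjusted p = 0.00249). Histone genes of a class are near-identical, and their probes may read several of them. Most messages of clustered histone genes carry no poly(A) tail, and how that bears on these arrays was not tested.

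Promoters are shown for the 4 genes with the largest falls in the replication and mitotic lists that had an entry. Capitals mark the CCAAT box, the CHR element (TTTGAA or TTCGAA, the cell cycle genes homology region through which mitotic genes are repressed outside the cycle) and the E2F cores TTCCCGC and TTGGCGC, on both strands. Mcm5 (chr8:75109259-75109558, plus strand) held 3 CCAAT boxes and 2 E2F cores. Cdc20 (chr4:118437294-118437593, minus strand) held 2 CCAAT boxes and 1 CHR, Plk1 (chr7:122159185-122159484, plus strand) 1 and 1, and Cdca3 (chr6:124829926-124830225, plus strand) 3 and 1.
Mcm5: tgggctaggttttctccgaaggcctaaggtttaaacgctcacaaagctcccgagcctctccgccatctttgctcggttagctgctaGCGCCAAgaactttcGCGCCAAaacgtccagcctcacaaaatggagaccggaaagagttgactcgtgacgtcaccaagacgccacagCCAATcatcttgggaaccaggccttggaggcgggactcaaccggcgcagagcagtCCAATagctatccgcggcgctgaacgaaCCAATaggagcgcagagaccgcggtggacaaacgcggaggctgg
Cdc20: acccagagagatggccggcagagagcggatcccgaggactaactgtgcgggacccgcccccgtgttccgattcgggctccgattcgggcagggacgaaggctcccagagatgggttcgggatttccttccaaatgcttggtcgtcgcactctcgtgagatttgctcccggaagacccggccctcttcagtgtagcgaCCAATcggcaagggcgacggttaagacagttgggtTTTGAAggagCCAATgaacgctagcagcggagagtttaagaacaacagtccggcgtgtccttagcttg
Plk1: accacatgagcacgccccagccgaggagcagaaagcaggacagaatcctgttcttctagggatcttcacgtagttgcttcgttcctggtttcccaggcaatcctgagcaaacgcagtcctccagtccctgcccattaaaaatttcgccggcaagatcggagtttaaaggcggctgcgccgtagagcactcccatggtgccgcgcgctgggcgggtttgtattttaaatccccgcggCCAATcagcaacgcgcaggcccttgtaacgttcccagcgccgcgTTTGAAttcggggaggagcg
Cdca3: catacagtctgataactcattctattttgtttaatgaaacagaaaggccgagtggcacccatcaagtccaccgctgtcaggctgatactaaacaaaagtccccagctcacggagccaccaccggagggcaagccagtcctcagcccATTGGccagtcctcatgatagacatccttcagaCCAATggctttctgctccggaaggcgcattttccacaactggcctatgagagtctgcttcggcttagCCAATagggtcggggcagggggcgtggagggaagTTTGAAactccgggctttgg

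The lists differed in these letters. Of the mitotic genes that fell, 38 of 45 had a promoter, and a CHR was in 73.7% of them against 19.4% of all promoters. Of the replication genes that fell, 34 of 42 had one, with a CHR in 26.5% and an E2F core in 47.1%, against 6.93% of all promoters and 26.3% in the mitotic set. CCAAT boxes were in 63.2% of the mitotic and 52.9% of the replication promoters, against 37.9% of all. In the rising muscle genes the CHR was in 7.14% and the E2F core in 1.43%. Cdca3, which activates entry into mitosis, stood at 1.55 and 2.16 at day 0 and -0.47 and -0.56 at day 1 and fell by 2.38 ± 0.22 (adjusted p = 0.000294).

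**Figure D4:**
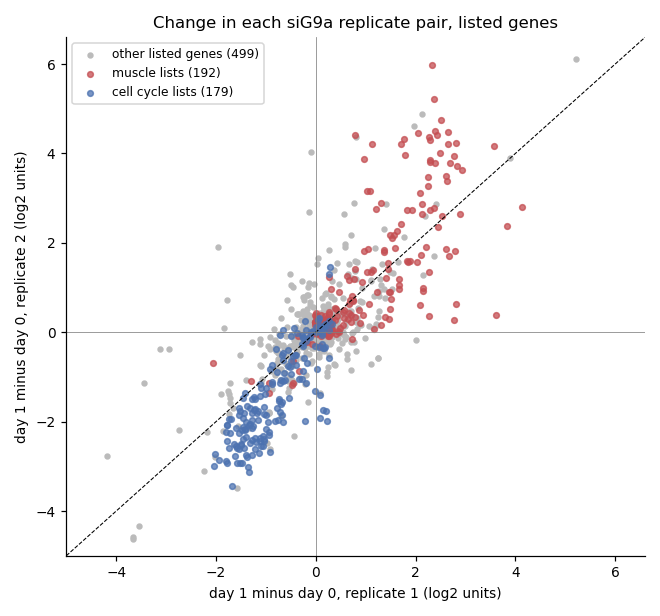
Change from day 0 to day 1 of each listed gene in replicate pair 1 (horizontal axis) and pair 2 (vertical axis) of siG9a, in log2 units. Red points are the 192 genes of the muscle lists, blue points the 179 of the cell cycle lists, grey points the remaining listed genes, and the dashed line marks equal change. Cell cycle genes lie mostly below the line, as 113 of the 119 that fell did so by more in pair 2.

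Signalling genes changed member by member. Of 106 listed genes 15 rose (14.2%) and 17 fell (16%), against 3.42% and 5.56% of all features. In the insulin-like growth factor system 5 of 17 rose and 2 fell, and without the block 0 did. Igf1 stood at -0.94 and -0.89 at day 0 and 0.25 and 0.996 at day 1 and rose by 1.54 ± 0.26 (adjusted p = 0.00649), and its binding proteins Igfbp4 and Igfbp3 rose by 1.42 ± 0.13 (adjusted p = 0.000304) and 1.19 ± 0.19 (adjusted p = 0.00461), whereas Igfbp2 fell by 1.60 ± 0.14 (adjusted p = 0.000213) and Igfbp6 fell by 1.02 ± 0.18 (adjusted p = 0.00691). Igf2r, the receptor that clears IGF2, rose by 0.96 ± 0.16 (adjusted p = 0.00556). Igf2, Cdkn1c and Igf2r are also imprinted genes. Of 16 such genes 6 rose and 1 fell, against 3.42% and 5.56% of all features. Mest and H19, of that network, rose by 2.14 ± 0.32 (adjusted p = 0.00368) and 1.10 ± 0.22 (adjusted p = 0.0135).

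In the myostatin, activin and BMP system 4 of 27 rose and 5 fell, against 3.42% and 5.56% of all features. Without the block 1 of the 27 rose and 0 fell. Fst, follistatin, which binds activin and myostatin, stood at -1.35 and -2.97 at day 0 and 0.84 and -0.38 at day 1 and rose by 2.40 ± 0.15 (adjusted p = 7.39e-05). Grem1, a BMP antagonist, fell by 1.56 ± 0.17 (adjusted p = 0.000654). Of the TGF-beta genes Tgfb2 and Tgfb3 rose, by 0.999 ± 0.12 (adjusted p = 0.00126) and 1.41 ± 0.19 (adjusted p = 0.00194), and Tgfb1 fell by 0.85 ± 0.10 (adjusted p = 0.000863). Myostatin itself (Mstn) stood at 0.22 ± 0.13 (adjusted p = 0.353). In the Notch pathway the ligand Dll1, the receptor Notch1 and the targets Heyl and Hes6 rose, 4 of 21, by between 0.42 for Notch1 and 1.43 for Hes6, against 3.42% of all features. After median centring 1 of the 4, Dll1, was still called, and without the block 0.

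Among 20 growth factors Fgf21 rose and 5 genes fell, where 3.42% and 5.56% of all features rose and fell. Beside Hgf, Vegfc, a lymphatic growth factor, fell by 1.43 ± 0.18 (adjusted p = 0.00126). Fgf7, keratinocyte growth factor, stood at -0.13 and 4.05 at day 0 and -1.05 and 1.42 at day 1 and fell by 1.77 ± 0.36 (adjusted p = 0.0162). Its replicates differed by more than 4 units at day 0, with replicate 2 the higher, and its groups overlapped. Of 21 immediate early genes 1 rose, the phosphatase gene Dusp1 (0.81 ± 0.15 (adjusted p = 0.0105)), and 5 fell, among them Nr4a2 (-0.89 ± 0.14 (adjusted p = 0.00435)) and Egr2 (-1.73 ± 0.38 (adjusted p = 0.0231)).

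Most listed stress and metabolic genes were not called. Among 118 there were 11 rises (9.32%) and 14 falls (11.9%), shares above the 3.42% and 5.56% of all features. NRF2 targets gave 0 rises and 5 falls among 21, with a median of -0.429 and 3 falls without the block. Gclm, of glutathione synthesis, stood at 1.72 and 1.30 at day 0 and 0.01 and -0.29 at day 1 and fell by 1.65 ± 0.11 (adjusted p = 8.68e-05), and Srxn1, sulfiredoxin, fell by 1.65 ± 0.17 (adjusted p = 0.000503). Genes of the ATF4 response gave 9 rises and 1 fall among 25, with a median of 0.358, and 0 were called without the block. Beside Fgf21, Chac1, which degrades glutathione, rose by 1.94 ± 0.15 (adjusted p = 0.000145), the pseudokinase Trib3 by 1.17 ± 0.17 (adjusted p = 0.0028) and the receptor Vldlr by 1.25 ± 0.17 (adjusted p = 0.00207), and the fall was Cebpb (-1.12 ± 0.10 (adjusted p = 0.000291)).

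Of 21 p53 target genes 5 rose and 3 fell (0 without the block), with Pmaip1 (0.99 ± 0.13 (adjusted p = 0.00175)) and Sesn1 (0.97 ± 0.15 (adjusted p = 0.00351)) higher and Ccng1 (-1.36 ± 0.19 (adjusted p = 0.00207)) lower. Cholesterol and fatty acid genes gave 2 rises and 1 fall among 24, where 3.42% and 5.56% of all features rose and fell. Of 21 ribosomal protein genes 0 rose and 4 fell, with a median of -0.060.

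Matrix genes gave calls in both directions. Of 67 listed genes 5 rose (7.46%) and 12 fell (17.9%), against 3.42% and 5.56% of all features. Collagens gave 3 rises and 4 falls among 24, and other matrix genes 2 rises and 8 falls among 43, with medians of 0.129 and 0.164. Without the block the collagens gave 0 calls and the others 1 rise and 2 falls. Col1a1, the main fibrillar collagen, stood at -2.96 and -0.09 at day 0 and -1.42 and 1.24 at day 1 and rose by 1.43 ± 0.13 (adjusted p = 0.000291), although day 0 replicate 2 lay above day 1 replicate 1. The other Col1a1 probe moved by only 0.030. Col18a1, of basement membranes, fell by 1.23 ± 0.15 (adjusted p = 0.0011). Ogn, osteoglycin, stood at -1.77 and -2.09 at day 0 and 0.65 and 0.78 at day 1 and rose by 2.64 ± 0.17 (adjusted p = 8.34e-05), with close replicates. Loxl1 rose (1.08 ± 0.16 (adjusted p = 0.00336)) and Lox, the related crosslinking enzyme, fell (-1.38 ± 0.20 (adjusted p = 0.00256)). The protease inhibitor gene Timp3 fell by 2.04 ± 0.13 (adjusted p = 7.39e-05) and Timp1 fell by 1.74 ± 0.23 (adjusted p = 0.00166).

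A few matrix and immune genes were high on day 1 replicate 2, in siG9a and in control. Dcn, decorin, a fibroblast marker, stood at -0.72 and -0.35 at day 0 and 0.09 and 4.02 at day 1 and did not pass (2.58 ± 0.75 (adjusted p = 0.0703)). Saa3, an acute-phase protein, stood at 0.05 and 0.80 at day 0 and -0.05 and 4.82 at day 1 and Mmp13, a collagenase, at 0.15 and 0.78 at day 0 and 0.01 and 3.47 at day 1. Among the control arrays these genes were highest on day 1 replicate 2, at 4.06 for Dcn, 3.74 for Saa3 and 2.83 for Mmp13. Interferon genes gave 1 rise, Oasl2 (0.77 ± 0.16 (adjusted p = 0.0156)), among 29, and chemokines and cytokines 1 rise, Tnfaip3 (1.04 ± 0.19 (adjusted p = 0.0102)), and 3 falls, among them Csf1 (-1.53 ± 0.16 (adjusted p = 0.000515)), among 22. Of all features 3.42% rose and 5.56% fell, so that 1 rise among 29 or 22 genes is near the background.

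Whether the change from day 0 to day 1 was particular to siG9a was asked against the control arrays with the interaction test. In control 1212 features rose (3.85%) and 1563 fell (4.97%). Of the siG9a rises 78% were also called in control, and 69.2% of the control rises in siG9a. For falls the shares were 72% and 80.6%, and 0 features were called in opposite directions. The interaction called 0 features (0%), with limma giving a smallest adjusted p of 0.92, and 1382 features (4.4%) had an unadjusted p under 0.05, a threshold that by itself lets through 5%. Without the replicate block it also called 0, with 18 at an unadjusted p under 0.05. With 2 pairs in each arm, a p that misses the threshold does not show that the arms changed alike.

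The muscle genes that rose had a median change of 1.98 in siG9a and 2.23 in control. A smaller estimate in siG9a was found in 76 of these 97, and in 618 of all 1076 features that rose. In the 97 the median difference was -0.632 in replicate pair 1 and 0.040 in pair 2, so the pairs did not agree. In replicate 1 the troponin and actin list had day 0 medians of -1.747 in control and -0.662 in siG9a, and day 1 medians of 0.524 and 0.503. This was the widest day 0 gap of the muscle lists in that replicate. In replicate 2 the day 0 medians of the same list were -2.932 in control and -2.811 in siG9a. The myosin, fusion and ubiquitin ligase lists had lower day 0 medians in siG9a than in control in replicate 1. Cell cycle genes that fell had a median of -1.64 in siG9a and -1.53 in control, with pair medians of the difference of -0.037 and -0.122. Both sets were chosen by their call in siG9a. Over all 179 listed cell cycle genes the medians were -1.23 in siG9a and -1.26 in control, and over all 192 muscle genes 0.764 and 0.822. Cdkn1c rose by 5.78 in control and 5.67 in siG9a. Cdc20 differed by -1.88 in control and -2.52 in siG9a. Its interaction of -0.64 ± 0.32 did not pass in the limma test (unadjusted p = 0.0744, adjusted p = 0.92).

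**Figure D5:**
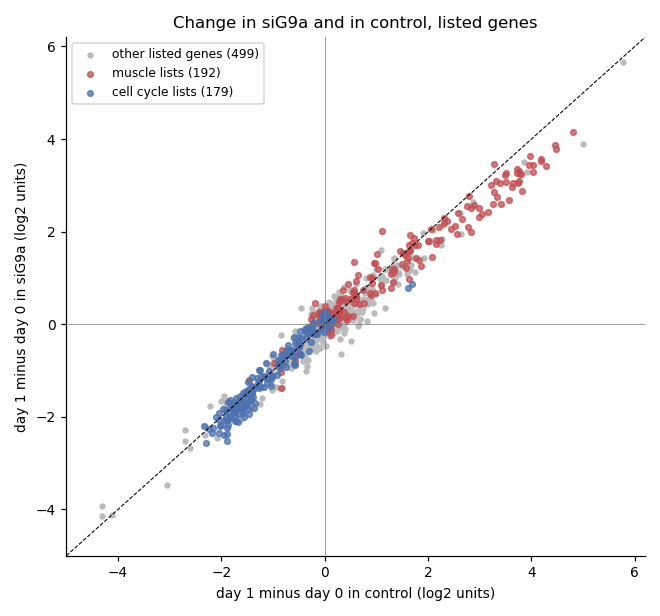
Change from day 0 to day 1 of each listed gene in control (horizontal axis) and siG9a (vertical axis), in log2 units. Red points are genes of the muscle lists, blue points those of the cell cycle lists and grey points the remaining listed genes, and the dashed line marks equal change. Cdkn1c is the point at the upper right, with 5.78 in control and 5.67 in siG9a.

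None of the genes with the smallest interaction p passed. Fgf21 had a lower estimate in siG9a, with a rise of 4.995 in control and 3.90 in siG9a, a difference of -1.09 ± 0.26 (unadjusted p = 0.00228, adjusted p = 0.92). Bdh2, a short-chain dehydrogenase, gave -0.89 ± 0.18, and Glipr2, Smox and Pcnx gave between -0.64 and -0.59. In the other direction Stom, stomatin, gave 0.70 ± 0.15 and Dusp6, an ERK phosphatase, 0.63 ± 0.16. 4930402F06Rik, AW049900 and Tslp gave between 0.56 and 0.68. For Dusp6 this was a change of -0.86 in control and -0.22 in siG9a.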

How the data were processed

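Total RNA of 8 samples was hybridised to Illumina WG-6 v2.0 arrays, with 2 replicates in each of 4 groups, with group and replicate taken from the sample titles. The log2 values used are those of the processed table that the authors deposited, 45281 probes by 8 arrays. The base of the logarithm is not stated, and base 2 was assumed. The widest range within a probe was 6.88 units, and the median over the arrays was 0 within 1e-05 in 32.9% of probes. How these values were background-corrected, normalized and filtered is not given in the sources used here. Another deposited table holds 16 columns whose names match no sample, so it was not used, and no filter or correction on signal or detection was run. Precision is limited by the number of arrays, and signal over background could not be assessed.

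Probes were named through the platform's gene table, with symbols updated by Entrez ID (28620 probes) or accession (2637), and 4527 kept the platform symbol. In all 35784 probes had 1 symbol and 9497 were unnamed here. Each of 21946 genes was represented by its probe of largest standard deviation across the 8 arrays, which with unnamed probes gave 31443 features. Among the called named genes 1287 had other probes, and in 931 all of these moved the same way. The probe used varies most by choice, so its change can be larger than that of the other probes. Such gaps are not given for every gene named here.

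limma 3.58.1 in R 4.3.3 was fitted to all 8 arrays with 4 group means and the replicate number as an additive block. Empirical Bayes without a trend followed (3 residual and 5.87 prior degrees of freedom). The fit was tested on data simulated from this same model, which cannot show whether the block suits the real arrays. The pairing is by replicate number in the titles. Over 6 pairs of groups, the deviations of replicates from their group means correlated with r between 0.613 and 0.865. With 2 arrays in each group the smallest p of an exact permutation test is 0.333, and such tests were left out. Alternatives were no block, a block within each siRNA, arrays of 1 siRNA, median centring, the mean of all probes, named genes only, robust moderation and leaving out each array.

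The genes and lists were chosen with earlier results of these data known. Eligible for naming were Ehmt2 and Ehmt1, the 15 largest rises and falls among called genes whose pairs agreed and whose groups did not overlap, up to 5 genes per list by smallest p, all listed regulators, and the 5 smallest interaction p each way. Named outside this rule, after their values were seen, were Acta1, Aurkb, Bub1, Cacna2d1, Cav1, Cav3, Ccna2, Ccnb2, Cdk1, Chrne, Chrng, Dmd, Flnc, Foxm1, H19, Igfbp6, Jph1, Mcm10, Mki67, Mmp13, Mstn, Myh1, Myh2, Myh4, Pcna, Pdk4, Saa3, Tgfb3, Tk1, Tnnc1, Tnni2, Tnnt1, Tpm3 and Ttn, and the promoter of Myog. Listed genes without a probe symbol were not analysed here. Promoters are the first entry of each gene in a RefSeq table of GRCm38.p6.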

Additional observations from a re-analysis of the deposited data

How the results depend on the processing

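Without the replicate block, 285 features changed in siG9a (72 higher, 213 lower), 353 in control, 5 muscle genes rose and 47 cell cycle genes fell, where the block gave 2825, 1076, 1749, 2775, 97 and 119. Because the arrays are paired by number, the spread between replicates then enters the error, and the paired fit is the main one. With a replicate block within each siRNA, 693 features were higher and 1206 lower in siG9a. With the arrays of 1 siRNA only, 1593 changed (614 higher, 979 lower). Under robust moderation 2756 features changed in siG9a, but 68 muscle genes rose and 86 cell cycle genes fell, fewer than the 97 and 119 of the main fit. Leaving out 1 array gave 1560 to 2800 changed features in siG9a (579 to 1069 higher, 887 to 1731 lower), 1483 to 2861 in control, 81 to 102 rising muscle genes and 78 to 120 falling cell cycle genes. The siG9a count was lowest without siG9a day 1 replicate 2 (1560), and dropped to 1758 without siG9a day 0 replicate 1, 1648 without siG9a day 1 replicate 1 and 1619 without siG9a day 0 replicate 2, fits that each leave a lone array in a group, assumed to vary like the others. The control count was 1605 without control day 0 replicate 1, 1548 without control day 1 replicate 1 and 1483 without control day 1 replicate 2. The count of falling cell cycle genes was 78 without siG9a day 0 replicate 2 and also without siG9a day 1 replicate 2. The interaction called 0 features under every setting that could test it. Of 173 called genes named in the report, 1 changed direction, under 1 of the 15 alternatives: Tpm3, at -0.83 with its chosen probe, had a change of 0.45 with the mean of its probes. Of the 173, 129 were no longer called without the block, 35 under robust moderation, 12 with the mean of all probes and 8 after median centring, and with 1 array left out the number lost was between 2 and 37; the cause was not tested. No list median with a size over 0.25 and over the spread of its pairs changed sign. With signal over background unknown, weak probes could not be told from absent transcripts.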
